A study of Homo sapiens with 6 samples.

Results

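The genes described here are 60 genes that build and regulate the mitotic kinetochore, the spindle and the spindle checkpoint, out of 58381 genes in the deposited count files. They were taken from a list of gene symbols that was chosen with earlier results of these data known. All 60 symbols matched a gene identifier in the files, and all 60 were among the 23160 genes that passed the filter on low counts. The genes were grouped by role into 10 groups of 3 to 12 genes, from the centromere to cytokinesis.

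RNA was sequenced from 786-0, an established human line of clear cell renal cell carcinoma, in 6 libraries of 3 groups. Every library, controls included, carries the label SETD2 KO: SETD2 is the enzyme that trimethylates lysine 36 of histone H3, and no library with intact SETD2 was analysed here. The groups were vehicle (DMSO), 100 nM decitabine and 300 nM decitabine, with 2 libraries each. Decitabine, a deoxycytidine analogue that is built into replicating DNA and traps DNA methyltransferases there, or the vehicle was given once a day over 3 days, followed by new medium on day 4 and harvest on day 5. The labels do not say whether the knockout is 1 clone. They also leave unsaid whether paired libraries are separate cultures, so a p-value here reflects the scatter of these libraries alone, and that scatter may be technical.

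Libraries held 89159112 to 96646427 reads assigned to genes. Values below are read counts scaled to library size (CPM, with TMM factors), and each pair of values gives replicate 1 and then replicate 2. SETD2 itself was read at 77.9 and 81.2 CPM with DMSO, 39.8 and 49.1 CPM at 100 nM, and 16.4 and 21.7 CPM at 300 nM; a count over the whole gene does not show which alleles were disrupted. All 8 markers of renal carcinoma lines were expressed in every library, with a summed level of 2969.6 to 3623 CPM, of which VIM gave 1778 to 2369 CPM. At 300 nM 5 of the 8 were lower than with DMSO and 2 higher, where 31.1% of all tested genes were lower and 34.8% higher. CDH6, MET and PAX8 had the lowest log2 fold changes, at -3.05, -2.08 and -1.66. VIM and NNMT were the 2 that were higher, at 0.30 and 0.46. Immune markers summed to 0.104 to 1.75 CPM and endothelial markers to 0.936 to 3.45 CPM, and in both lists the sums were higher at each dose than with DMSO.

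Chromosomes attach to spindle microtubules through the kinetochore, a layered protein assembly that forms on centromeric chromatin. The spindle checkpoint delays chromosome separation until every kinetochore is attached, after which the anaphase-promoting complex marks securin and cyclin B for destruction and separase cuts cohesin. Most genes for these proteins are transcribed late in the cell cycle, through promoters bound by the DREAM and MuvB complexes, B-MYB, FOXM1 and NF-Y, so their RNA is high in proliferating cells and falls when cells leave the cycle. In RNA from whole cultures, fewer cells in mitosis and less RNA per cell cannot be told apart.

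Because many of these genes share promoter elements, the RefSeq promoters (GRCh38.p14, 250 bases before to 50 after the start) were searched for the cell cycle genes homology region (CHR, with the letters TTTGAA or, in a variant form, TTCGAA) and for the NF-Y box with the letters CCAAT, on both strands. A promoter was found for 51 of the 60 genes. A CHR of either form was present in 35 of the 51 (68.6%), against 16.6% of all 27303 promoters of the same length. The NF-Y box was present at least once in 35 of the 51 (68.6%, against 35.7%) and at least 2 times in 22 (43.1%, against 11.3%), and 25 (49.0%, against 6.58%) held both kinds of element. The member promoters had a median of 25 CpG pairs per 300 bases, against 14 over all promoters. A CHR was found in 27 of the 37 promoters of genes that were lower at 300 nM than with DMSO and in 4 of the 5 of genes that were higher. A match is a description of the letters, not evidence of binding. The 6 promoters printed here belong to ASPM and CENPF, the genes with the lowest log2 fold changes at 300 nM, to the mitotic kinases CDK1 and PLK1, and to CDC20 and CDCA5, both higher at 300 nM than with DMSO. They are written from 5′ to 3′ on the strand of the gene, and capitals mark both CHR forms, the NF-Y box and their reverse complements.
ASPM (chr1:197146620-197146919, minus strand): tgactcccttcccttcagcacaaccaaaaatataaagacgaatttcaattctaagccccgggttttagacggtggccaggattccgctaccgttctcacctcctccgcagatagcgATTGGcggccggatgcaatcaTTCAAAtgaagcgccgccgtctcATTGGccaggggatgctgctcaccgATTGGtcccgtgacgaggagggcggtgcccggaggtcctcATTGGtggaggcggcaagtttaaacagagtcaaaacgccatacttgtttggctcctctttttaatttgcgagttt
CENPF (chr1:214602945-214603244, plus strand): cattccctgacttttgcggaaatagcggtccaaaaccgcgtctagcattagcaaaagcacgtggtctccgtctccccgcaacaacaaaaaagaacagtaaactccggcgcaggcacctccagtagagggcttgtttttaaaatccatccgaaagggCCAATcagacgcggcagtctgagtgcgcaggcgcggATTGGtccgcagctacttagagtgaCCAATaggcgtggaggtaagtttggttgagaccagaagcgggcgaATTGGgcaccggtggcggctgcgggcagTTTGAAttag
CDK1 (chr10:60778081-60778380, plus strand): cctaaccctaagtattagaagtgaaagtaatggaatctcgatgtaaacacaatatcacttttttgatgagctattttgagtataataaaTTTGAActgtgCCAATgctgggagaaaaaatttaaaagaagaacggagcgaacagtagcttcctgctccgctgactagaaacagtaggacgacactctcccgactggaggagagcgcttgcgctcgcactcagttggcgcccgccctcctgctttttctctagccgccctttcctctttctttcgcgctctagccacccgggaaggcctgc
PLK1 (chr16:23678639-23678938, plus strand): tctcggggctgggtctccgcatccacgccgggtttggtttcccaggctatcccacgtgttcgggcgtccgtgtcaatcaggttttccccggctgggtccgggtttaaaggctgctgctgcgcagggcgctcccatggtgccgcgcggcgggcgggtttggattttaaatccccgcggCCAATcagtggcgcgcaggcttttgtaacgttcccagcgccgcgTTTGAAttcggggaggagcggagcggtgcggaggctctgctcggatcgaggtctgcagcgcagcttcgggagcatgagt
CDC20 (chr1:43358731-43359030, plus strand): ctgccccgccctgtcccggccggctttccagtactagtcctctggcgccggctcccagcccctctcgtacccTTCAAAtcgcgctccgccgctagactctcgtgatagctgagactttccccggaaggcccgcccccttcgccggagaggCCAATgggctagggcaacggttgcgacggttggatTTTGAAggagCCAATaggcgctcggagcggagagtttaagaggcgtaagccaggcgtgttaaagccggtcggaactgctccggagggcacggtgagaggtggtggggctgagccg
CDCA5 (chr11:65083991-65084290, minus strand): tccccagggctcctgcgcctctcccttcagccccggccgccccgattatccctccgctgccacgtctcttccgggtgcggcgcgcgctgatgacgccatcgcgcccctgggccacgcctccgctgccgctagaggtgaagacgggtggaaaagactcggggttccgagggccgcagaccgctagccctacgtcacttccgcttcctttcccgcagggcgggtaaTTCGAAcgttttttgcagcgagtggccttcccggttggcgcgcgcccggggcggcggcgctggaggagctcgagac
ASPM and CENPF held 4 NF-Y boxes and 1 CHR each, CDC20 held 2 of each element, CDK1 and PLK1 held 1 of each, and CDCA5 held a CHR of the variant form and no NF-Y box.

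At 100 nM, 46 of the 60 mitotic genes fell below DMSO and none rose (edgeR quasi-likelihood test, Benjamini-Hochberg adjusted p under 0.05 over all tested genes), where 18.7% of all tested genes were lower and 24.0% higher. Their median log2 fold change was -0.60, against 0.03 over all tested genes, and 57 of the 60 values were below 0. At 300 nM, 40 genes were lower than with DMSO and 7 were higher, where 31.1% of all tested genes were lower and 34.8% higher. The median stayed close, at -0.65 against 0.05 over all tested genes, but the spread widened: log2 fold changes ran from -2.59 to 0.33 at 100 nM and from -5.33 to 0.95 at 300 nM. Between the doses, 29 genes were lower and 17 higher at 300 nM than at 100 nM (48.3% and 28.3%), with a median of -0.29 against -0.04. Of all tested genes 23.4% were lower and 20.0% higher. Other coding genes of like exon length and GC content averaged 43.8% lower and 19.4% higher. Both comparisons with DMSO use the same 2 control libraries.

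The genes fell into unequal courses over dose. Lower calls at both doses were made for 38 genes, and for 28 genes a lower call at 100 nM was followed by a lower call between the doses. A further 8 genes were lower at 100 nM and then higher at 300 nM than at 100 nM, among them CCNB1, PLK1 and CDC20, and CDC20 was the 1 gene that was lower than DMSO at 100 nM and higher than DMSO at 300 nM. Genes called lower with at least a 4-fold difference numbered 3 at 100 nM and 19 at 300 nM, and 6 reached 8-fold at 300 nM: ASPM, CENPF, CENPE, SMC2, SMC4 and SGO2. The shares of all tested genes with these courses or folds were not counted. Falls were common in other coding genes too. Among those with the longest exons and lowest GC content, 90.9% were lower at 300 nM, with a median of -1.80. The summed level of the 60 genes was 9384 and 9825 CPM with DMSO, 5635 and 5784 CPM at 100 nM, and 6287 and 5978 CPM at 300 nM. The sum at 300 nM thus lay above that at 100 nM although more genes were 4-fold lower there.

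**Figure D1:**
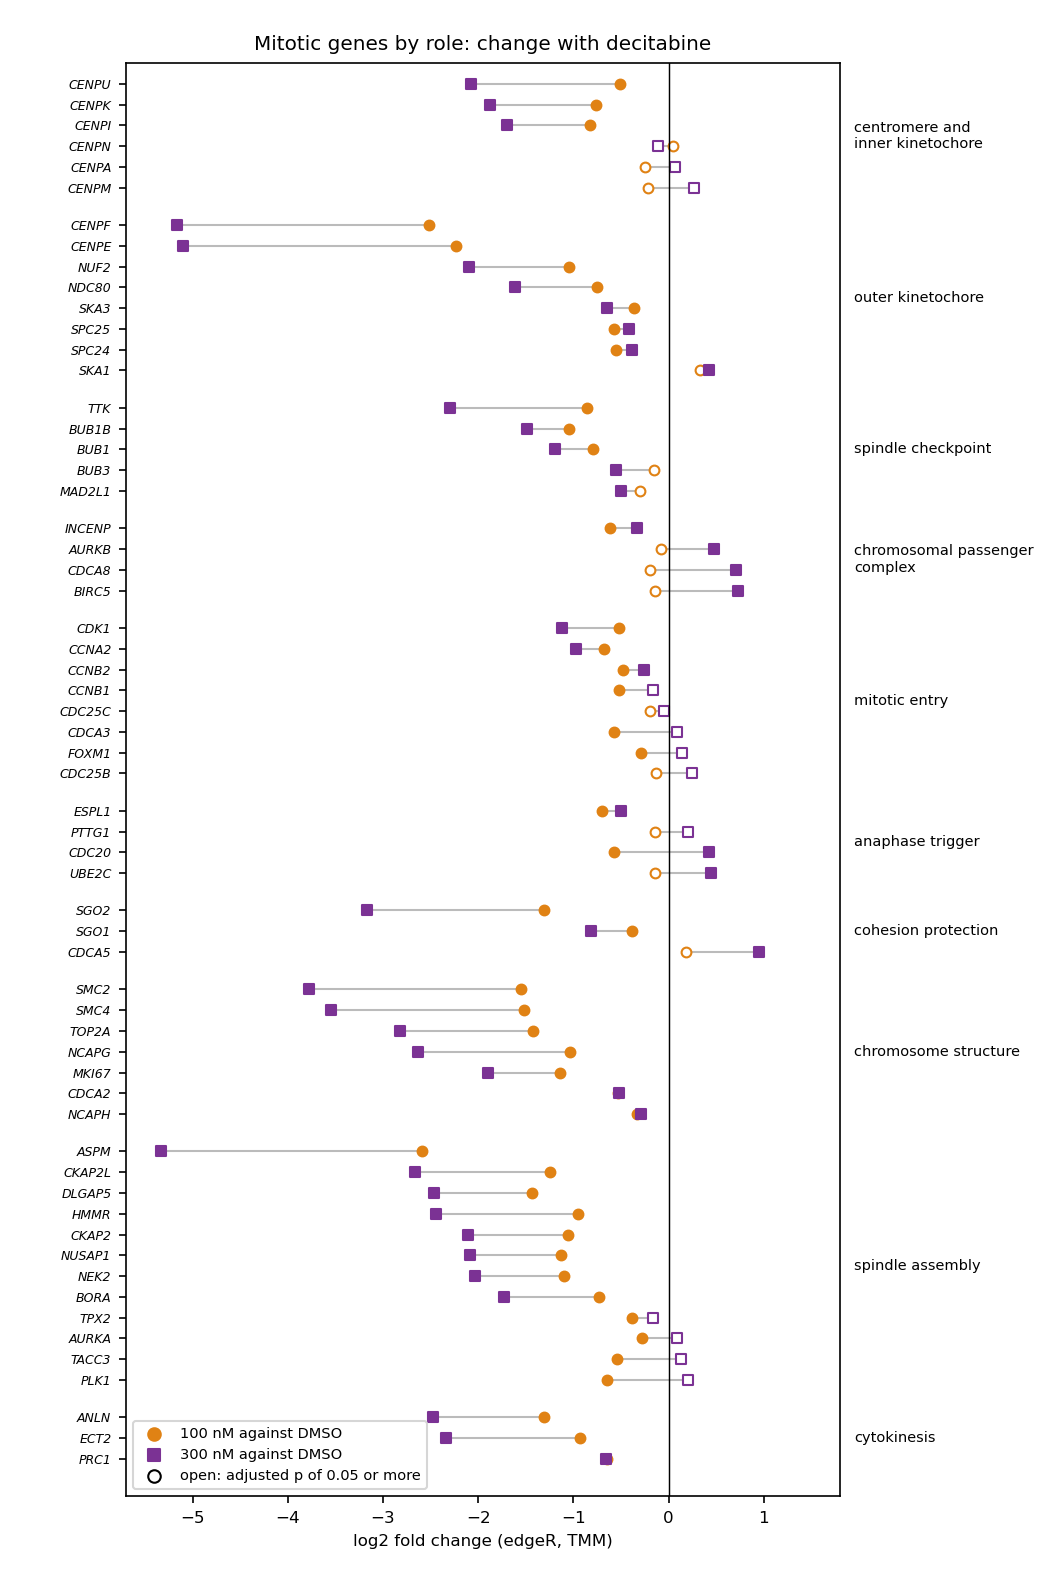
Log2 fold change against DMSO (x axis, edgeR with TMM scaling) of the 60 mitotic genes (y axis), grouped by role, at 100 nM (circles) and 300 nM (squares); filled symbols passed an adjusted p of 0.05 and a line joins the 2 doses of a gene. CENPF, CENPE, ASPM, SMC2 and SMC4 reach the lowest values at 300 nM. The 7 genes called higher there are AURKB, CDCA8, BIRC5, CDC20, UBE2C, CDCA5 and SKA1. With offsets for length and GC content, AURKB, CDCA8, CDC20 and UBE2C fall left of 0, while SKA1 and CDCA5 keep a higher call.

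The counts by role below stand against the shares of all tested genes. At 100 nM these were 18.7% lower and 24.0% higher, and at 300 nM 31.1% and 34.8%. In the members' classes of like exon length and GC content, described below, averages were 28.7% lower and 22.5% higher at 100 nM. At 300 nM they were 48.2% and 30.9%. Between the doses 23.4% of all tested genes were lower and 20.0% higher, and the class averages were 43.8% and 19.4%. In the classes of lowest GC content 56.6% to 88.4% of genes were lower between the doses. Of the 6 genes of the centromere and inner kinetochore, 3 were lower than with DMSO at both doses and the others were not called against DMSO. CENPU, a subunit of the constitutive centromere network, was read at 31.4 and 31.2 CPM with DMSO, 20.3 and 23.6 CPM at 100 nM, and 6.64 and 8.17 CPM at 300 nM. Its level was lower in both treated groups without overlap (300 nM: log2 fold change -2.08, SE 0.14, adjusted p = 1.3e-09). CENPK and CENPI, of the same network, had log2 fold changes of -1.87 and -1.70 at 300 nM, and all 3 were lower again between the doses. CENPM, also of this network, stayed at 40.5 and 39.6 CPM with DMSO, 36.4 and 32.3 CPM at 100 nM, and 53.2 and 42.9 CPM at 300 nM. CENPA, the histone H3 variant that marks the centromere, was read at 48.1 and 48.6 CPM with DMSO, 41.0 and 40.4 CPM at 100 nM, and 49.0 and 52.2 CPM at 300 nM. Neither was called against DMSO, and both were higher at 300 nM than at 100 nM (CENPM 0.48, adjusted p = 0.0054; CENPA 0.32, adjusted p = 0.028). With the length and GC offsets described below, both were lower than DMSO at 300 nM (CENPM -1.12, CENPA -0.62). Values with the offsets, here and below, are not centred on 0. With them the median of all tested genes was -0.09 at 100 nM, -0.27 at 300 nM and -0.18 between the doses. CENPN, which reads the CENPA nucleosome, was the gene of this group whose DMSO and 300 nM libraries overlapped, at 43.2 and 45.8 CPM with DMSO, 47.2 and 45.0 CPM at 100 nM, and 38.0 and 44.6 CPM at 300 nM.

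In the outer kinetochore, where microtubules are caught, 7 of 8 genes were lower than with DMSO at each dose. CENPF, a large coiled-coil protein of the kinetochore and nuclear envelope encoded at chr1:214603195-214664588, was read at 426 and 444 CPM with DMSO, 59.9 and 92.3 CPM at 100 nM, and 12.2 and 12.1 CPM at 300 nM. Its level was 5.72-fold lower at 100 nM and 35.9-fold lower at 300 nM (log2 fold change -5.17, SE 0.17, adjusted p = 1.6e-13). CENPE, the kinesin that carries chromosomes to the spindle equator, was read at 71.7 and 66.8 CPM with DMSO, 11.2 and 18.3 CPM at 100 nM, and 2.25 and 1.81 CPM at 300 nM, a fall of 34.2-fold at 300 nM. The treated and control libraries of these 2 genes lay far apart. The 4 subunits of the NDC80 complex, the main microtubule anchor, did not move by the same amount. NUF2 was read at 47.5 and 52.4 CPM with DMSO, 24.0 and 24.2 CPM at 100 nM, and 9.33 and 14.0 CPM at 300 nM. NDC80 was read at 60.4 and 60.6 CPM with DMSO, 34.9 and 36.8 CPM at 100 nM, and 17.7 and 21.9 CPM at 300 nM. Both fell at each dose and fell again between the doses. SPC25 was read at 24.4 and 24.4 CPM with DMSO, 17.4 and 15.4 CPM at 100 nM, and 18.4 and 18.2 CPM at 300 nM. SPC24 was read at 60.6 and 55.8 CPM with DMSO, 41.5 and 37.7 CPM at 100 nM, and 48.9 and 40.4 CPM at 300 nM. Both were lower than with DMSO at each dose (at 300 nM SPC25 -0.42, adjusted p = 0.0078; SPC24 -0.38, adjusted p = 0.011), with no call between the doses. With the offsets the 2 parted at 300 nM, with SPC25 at 0.11 and SPC24 at -1.22. SKA1 and SKA3 belong to the SKA complex, which holds on to shrinking microtubule ends. SKA3 fell slightly (300 nM: -0.64, adjusted p = 0.00025), and with the offsets it had no call at either dose (-0.19 at 100 nM, -0.097 at 300 nM, adjusted p = 0.071 and 0.31). SKA1 was read at 24.4 and 28.1 CPM with DMSO, 32.5 and 33.3 CPM at 100 nM, and 32.2 and 38.5 CPM at 300 nM and was the 1 gene of this group above DMSO, with a call at 300 nM (log2 fold change 0.43, SE 0.13, adjusted p = 0.0077) that was lost without DMSO replicate 1 or without 300 nM replicate 2.

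All 5 spindle checkpoint genes were lower than with DMSO at 300 nM, and 3 of them at 100 nM. TTK, the kinase MPS1 that starts checkpoint signalling, was read at 53.3 and 58.9 CPM with DMSO, 29.6 and 32.4 CPM at 100 nM, and 9.39 and 13.5 CPM at 300 nM and had the lowest value of the group (log2 fold change -2.29, SE 0.16, adjusted p = 9.4e-10). BUB1B, the inhibitor BUBR1, was read at 68.9 and 73.4 CPM with DMSO, 33.3 and 35.6 CPM at 100 nM, and 23.7 and 27.0 CPM at 300 nM, -1.05 on the log2 scale at 100 nM and -1.49 at 300 nM. BUB1, the kinetochore kinase, was read at 199.5 and 216 CPM with DMSO, 118 and 121 CPM at 100 nM, and 83.1 and 98.6 CPM at 300 nM and fell by a similar amount. In these 3 genes no treated library reached the lowest DMSO library. MAD2L1, the MAD2 protein that blocks CDC20, was read at 73.9 and 79.1 CPM with DMSO, 64.7 and 59.4 CPM at 100 nM, and 45.2 and 62.6 CPM at 300 nM. BUB3, which docks BUB1 and BUBR1 at the kinetochore, was read at 167 and 181 CPM with DMSO, 149 and 165 CPM at 100 nM, and 108 and 130.1 CPM at 300 nM. Their calls at 300 nM (MAD2L1 -0.50, adjusted p = 0.0035; BUB3 -0.55, adjusted p = 0.00038) turned to higher with the offsets (MAD2L1 0.63, BUB3 0.53).

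The chromosomal passenger complex corrects faulty attachments. At 300 nM 3 of its 4 genes were higher than with DMSO, and all 4 were higher than at 100 nM. Of all tested genes, 34.8% and 20.0% were higher in these comparisons. Shares were larger among other coding genes of like exon length and GC content. In the class of AURKB 75.2% were higher than with DMSO and 61.3% between the doses, and in that of BIRC5 67.4% and 48.6%. BIRC5, the survivin subunit, was read at 221 and 243 CPM with DMSO, 223 and 195 CPM at 100 nM, and 403 and 367 CPM at 300 nM (log2 fold change 0.73, SE 0.10, adjusted p = 9.5e-06). CDCA8, the borealin subunit, was read at 132 and 142 CPM with DMSO, 125 and 113 CPM at 100 nM, and 237 and 209 CPM at 300 nM. AURKB, the kinase, was read at 135 and 127 CPM with DMSO, 131 and 117 CPM at 100 nM, and 197 and 167 CPM at 300 nM. In each of the 3 both 300 nM libraries lay above every other library. INCENP, the scaffold, was read at 155 and 154 CPM with DMSO, 107 and 95.2 CPM at 100 nM, and 127 and 118 CPM at 300 nM and was lower than with DMSO at both doses (300 nM: -0.34, adjusted p = 0.0087). With the offsets the sign turned for AURKB (-0.61, adjusted p = 2.8e-07) and CDCA8 (-0.10, adjusted p = 0.16), and BIRC5 was no longer called (0.11, adjusted p = 0.13). The median of all tested genes was then -0.27, with CDCA8 and BIRC5 above it and AURKB below.

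Among the 8 genes of mitotic entry, 6 fell at 100 nM but only 3 were lower than with DMSO at 300 nM (CDK1, CCNA2 and CCNB2). CDK1, the kinase that drives entry, was read at 119 and 130.3 CPM with DMSO, 86.9 and 86.6 CPM at 100 nM, and 48.3 and 66.4 CPM at 300 nM. It fell at each step of dose (log2 fold change -1.12, SE 0.13, adjusted p = 9.2e-07), yet stood at 0.15 with the offsets. CCNA2, cyclin A, was read at 120.1 and 128 CPM with DMSO, 75.1 and 80.0 CPM at 100 nM, and 55.5 and 70.7 CPM at 300 nM. CCNB1, the cyclin B that CDK1 needs, was read at 219 and 237 CPM with DMSO, 165 and 153 CPM at 100 nM, and 206 and 202 CPM at 300 nM. It fell at 100 nM (log2 fold change -0.52, SE 0.10, adjusted p = 0.00037) and was back near DMSO at 300 nM, above the 100 nM level (log2 0.36, adjusted p = 0.0068). CCNB2 was read at 96.8 and 105 CPM with DMSO, 76.7 and 68.5 CPM at 100 nM, and 82.7 and 86.7 CPM at 300 nM and lost its call at 300 nM in 5 of the 6 fits without 1 library. FOXM1, the transcription factor of many late cell cycle genes, was read at 165 and 166 CPM with DMSO, 136 and 134 CPM at 100 nM, and 191 and 173 CPM at 300 nM. It too was lowest at 100 nM, a call lost in the 4 fits without 1 of the DMSO or 100 nM libraries, and higher at 300 nM than at 100 nM (log2 0.43, adjusted p = 0.0021). CDCA3, which promotes destruction of the CDK1 inhibitor WEE1, was read at 81.4 and 84.4 CPM with DMSO, 59.0 and 52.3 CPM at 100 nM, and 94.4 and 81.3 CPM at 300 nM. CDC25B, a phosphatase that activates CDK1, was read at 239.9 and 226 CPM with DMSO, 218 and 207 CPM at 100 nM, and 300.0 and 251 CPM at 300 nM. Both were higher at 300 nM than at 100 nM, and neither was called at 300 nM against DMSO. CDC25C, the other phosphatase, was read at 29.5 and 30.4 CPM with DMSO, 26.5 and 25.7 CPM at 100 nM, and 29.6 and 28.2 CPM at 300 nM and was not called in any comparison. With the offsets FOXM1 (-0.57), CDCA3 (-0.34) and CDC25B (-0.65) were lower than with DMSO at 300 nM, against a median of -0.27 over all tested genes.

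Of the 4 genes that trigger anaphase, 2 were higher than with DMSO at 300 nM and 1 was lower. CDC20, the activator of the anaphase-promoting complex, had the highest level per exon length of the 60 genes with DMSO (234 CPM per kilobase). It was read at 467 and 486 CPM with DMSO, 337 and 302 CPM at 100 nM, and 699 and 576 CPM at 300 nM. Its level fell at 100 nM (log2 fold change -0.58, SE 0.11, adjusted p = 0.00032), and rose above DMSO at 300 nM (log2 fold change 0.42, SE 0.11, adjusted p = 0.0024). UBE2C, the ubiquitin-conjugating enzyme of the complex, was read at 197 and 192 CPM with DMSO, 178 and 173 CPM at 100 nM, and 289 and 240.1 CPM at 300 nM. PTTG1, securin, was read at 89.2 and 91.8 CPM with DMSO, 83.5 and 80.4 CPM at 100 nM, and 107 and 100.3 CPM at 300 nM. Both 300 nM libraries of these 3 genes lay above every DMSO library, with a call for CDC20 and UBE2C and none for PTTG1 (adjusted p = 0.096). ESPL1, separase, was read at 123 and 119.6 CPM with DMSO, 78.5 and 71.0 CPM at 100 nM, and 89.7 and 82.5 CPM at 300 nM and was lower than with DMSO at both doses. With the offsets all 4 genes were lower than with DMSO at both doses (at 300 nM CDC20 -0.82, UBE2C -0.64, PTTG1 -0.59, ESPL1 -0.93).

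The 3 genes that protect sister chromatid cohesion had the widest range of any group except the outer kinetochore and spindle assembly. SGO2, the shugoshin that shields cohesin, was read at 46.5 and 53.7 CPM with DMSO, 17.3 and 23.2 CPM at 100 nM, and 5.58 and 5.53 CPM at 300 nM (log2 fold change -3.17, SE 0.16, adjusted p = 2.2e-11). SGO1 was read at 12.2 and 12.4 CPM with DMSO, 8.57 and 10.2 CPM at 100 nM, and 6.90 and 7.11 CPM at 300 nM, a smaller fall (300 nM: -0.81, adjusted p = 0.00012) that was not called with the offsets at either dose (300 nM: -0.17, adjusted p = 0.18). CDCA5, the cohesin-stabilising protein sororin, was read at 107 and 111 CPM with DMSO, 131 and 116 CPM at 100 nM, and 223 and 197 CPM at 300 nM. It had the highest log2 fold change of all 60 genes at 300 nM (log2 fold change 0.95, SE 0.11, adjusted p = 6.1e-07), with both libraries above every DMSO and 100 nM library, and it kept a higher call with the offsets at 0.17 (adjusted p = 0.025).

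All 7 genes of chromosome structure were lower than with DMSO at both doses. Between the doses 5 of them were lower again, against an average of 43.8% of genes in the members' classes. SMC2 and SMC4 form the ATPase core of condensin, which compacts mitotic chromosomes. SMC2 was read at 185 and 202 CPM with DMSO, 54.9 and 76.7 CPM at 100 nM, and 13.0 and 15.3 CPM at 300 nM, a 13.7-fold fall at 300 nM. SMC4 was read at 305 and 326 CPM with DMSO, 99.2 and 121 CPM at 100 nM, and 23.0 and 30.9 CPM at 300 nM, a fall of 11.7-fold. Of the condensin I subunits, NCAPG had a log2 fold change of -2.64 at 300 nM. NCAPH was read at 84.6 and 81.7 CPM with DMSO, 68.4 and 64.1 CPM at 100 nM, and 69.7 and 66.6 CPM at 300 nM. The NCAPH change was small (-0.29, adjusted p = 0.024) and lost its call without either DMSO library. TOP2A, the topoisomerase that untangles chromatids, was read at 609 and 650.1 CPM with DMSO, 205 and 265 CPM at 100 nM, and 83.3 and 94.9 CPM at 300 nM (log2 fold change -2.82, SE 0.13, adjusted p = 5.7e-12). MKI67, the Ki-67 protein that coats mitotic chromosomes and serves as a marker of proliferation, was read at 894 and 916 CPM with DMSO, 368 and 451 CPM at 100 nM, and 222 and 262 CPM at 300 nM (log2 fold change -1.90, SE 0.12, adjusted p = 2.4e-10). Neither gene had a treated library near its DMSO libraries. CDCA2, the phosphatase-targeting protein Repo-Man, was read at 36.5 and 39.7 CPM with DMSO, 26.0 and 26.6 CPM at 100 nM, and 26.1 and 27.0 CPM at 300 nM, the same fall at both doses. With the offsets all 7 genes stayed lower than with DMSO at both doses.

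**Figure D2:**
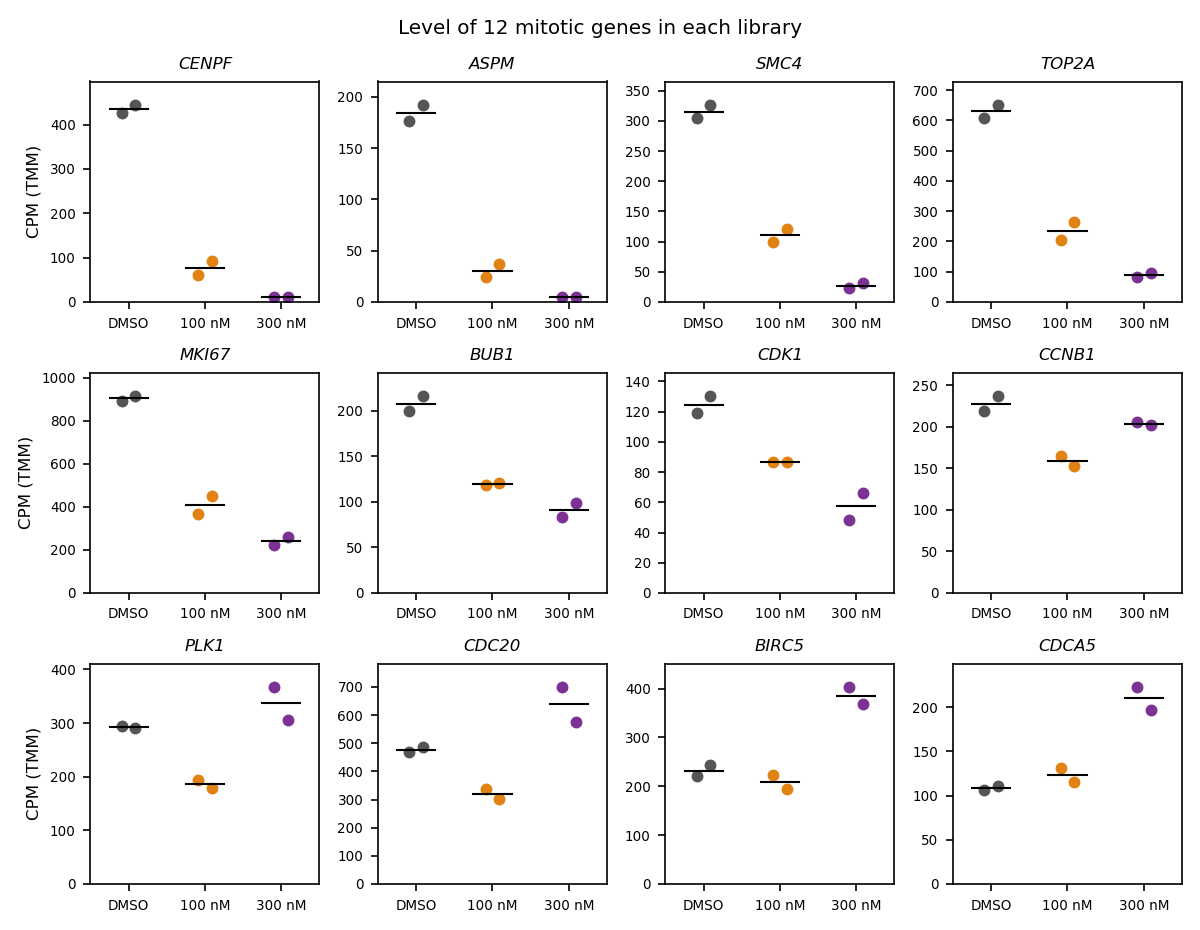
Level of 12 mitotic genes in each library (y axis, CPM with TMM factors, each panel from 0; points are libraries, replicate 1 left, and bars the mean of 2) with DMSO, 100 nM and 300 nM decitabine. CENPF, ASPM, SMC4, TOP2A, MKI67, BUB1 and CDK1 step down with dose, CCNB1, PLK1 and CDC20 are lowest at 100 nM, and BIRC5 and CDCA5 are highest at 300 nM; with offsets for length and GC content, CDK1 stands at 0.15, PLK1 at -0.59 and CDC20 at -0.82 on the log2 scale at 300 nM.

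All 12 genes of spindle assembly were lower than with DMSO at 100 nM, and they parted at 300 nM into 8 that fell further and 4 that were not called against DMSO. ASPM, a spindle pole protein encoded at chr1:197084128-197146694, was read at 176 and 192 CPM with DMSO, 24.4 and 36.7 CPM at 100 nM, and 4.40 and 4.72 CPM at 300 nM. This was the largest fall of the 60 genes, 6.04-fold at 100 nM and 40.4-fold at 300 nM (log2 fold change -5.33, SE 0.18, adjusted p = 1.7e-13). The spindle-binding proteins CKAP2L, DLGAP5, HMMR, CKAP2 and NUSAP1 and the centrosome kinase NEK2 had log2 fold changes of -2.66, -2.46, -2.44, -2.11, -2.09 and -2.03 at 300 nM. BORA, which helps Aurora A to activate PLK1, stood at -1.73. The 4 others were PLK1, AURKA, TPX2 and TACC3. PLK1, the polo-like kinase, was read at 295 and 291 CPM with DMSO, 194 and 179 CPM at 100 nM, and 367 and 306 CPM at 300 nM. AURKA, the Aurora A kinase, was read at 244 and 263 CPM with DMSO, 211 and 207 CPM at 100 nM, and 262 and 275 CPM at 300 nM. TACC3, which stabilises spindle fibres, was read at 401 and 392 CPM with DMSO, 293 and 254 CPM at 100 nM, and 474 and 395 CPM at 300 nM. In these 3 genes the 100 nM libraries lay below every other library, and the levels at 300 nM were higher than at 100 nM (PLK1 0.85, adjusted p = 7.4e-06; AURKA 0.36, adjusted p = 0.0059; TACC3 0.67, adjusted p = 0.00011). TPX2, the activator of Aurora A, was read at 556 and 582 CPM with DMSO, 438 and 436 CPM at 100 nM, and 508 and 507 CPM at 300 nM, with no call between the doses (adjusted p = 0.066). With the offsets these 4 genes were lower than with DMSO at 300 nM too (PLK1 -0.59, AURKA -0.26, TACC3 -0.56, TPX2 -0.43). The median of all tested genes was then -0.27, and AURKA lay near it.

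The 3 genes of cytokinesis were lower than with DMSO at both doses. ANLN, the contractile ring scaffold anillin, was read at 396 and 442 CPM with DMSO, 160.2 and 179 CPM at 100 nM, and 68.4 and 81.8 CPM at 300 nM (log2 fold change -2.48, SE 0.12, adjusted p = 1.1e-11). ECT2, which switches on RhoA at the cell equator, had a log2 fold change of -2.34 at 300 nM. PRC1, which bundles the central spindle, was read at only 2.18 and 2.55 CPM with DMSO, 1.44 and 1.59 CPM at 100 nM, and 1.45 and 1.55 CPM at 300 nM, the lowest level per exon length of the 60 genes. Of its exon bases, 58.4% lie in exons of another annotated gene, and the counting left out reads that fell on 2 genes, so its level is uncertain. The same holds less strongly for 9 other members with over 10% of shared exon bases, namely BORA (37.0%), NCAPG (33.1%), SMC4 (25.6%), CENPN (20.1%), SGO1 (17.7%), FOXM1 (15.9%), PLK1 (12.5%), CENPU (11.7%) and BUB1B (10.2%).

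Calls that rested on 1 library were few against DMSO. Leaving out each library in turn, the lower call was lost at least once for 9 of the 46 genes at 100 nM (AURKA, CCNB2, CENPU, FOXM1, NCAPH, PRC1, SGO1, SKA3 and TPX2) and for 6 of the 40 at 300 nM (CCNB2, INCENP, NCAPH, PRC1, SPC24 and SPC25). Of the higher calls, SKA1 was lost at 300 nM against DMSO, and 7 of 17 were lost at least once between the doses (AURKA, CCNB1, CDC25B, CENPA, CENPM, INCENP and PTTG1). Without 100 nM replicate 2, 10 genes in place of 17 were higher at 300 nM than at 100 nM. Without 300 nM replicate 2, 12 in place of 7 were higher than with DMSO.

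The direction at 300 nM moved with the base composition of the transcripts. GC content was taken from the longest transcript of each gene, and the median over expressed protein-coding genes (mean of at least 1 CPM) was 48.5%. Of the 43 mitotic genes below that value, 37 were lower than with DMSO at 300 nM and 1, SKA1, was higher, with a median log2 fold change of -1.73. Of the 17 at or above it, 3 were lower and 6 higher, with a median of 0.20. Other protein-coding genes split the same way, with medians of -0.69 below and 0.48 at or above the same GC value. Of them, 64.7% were lower and 16.3% higher below it, against 86.0% and 2.33% of the mitotic genes there. At or above it 14.9% were lower and 60.5% higher, against 17.6% and 35.3% of the mitotic genes. At 100 nM the members' medians were -0.80 and -0.22, against -0.21 and 0.13 in other genes, so that the mitotic genes lay below the other genes on either side of this value. Between the doses, all 29 lower calls were below the median GC and 14 of the 17 higher calls were at or above it. Other protein-coding genes divided likewise, with 3721 lower calls below and 449 at or above the median GC, and 431 higher calls below and 3059 at or above it. Across the 60 genes, which are not independent replicates, Spearman's rho of GC content with the log2 fold change reached 0.63 (100 nM) and 0.83 (300 nM), and across 12372 other protein-coding genes 0.38 and 0.61. With merged exon length rho was -0.57 and -0.56 in the members, and -0.32 and -0.38 in the others. ASPM, CENPE and CENPF combined long exons (10.9, 9.44 and 11.7 kb) with GC contents of 37.1%, 35.3% and 40.8%.

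**Figure D3:**
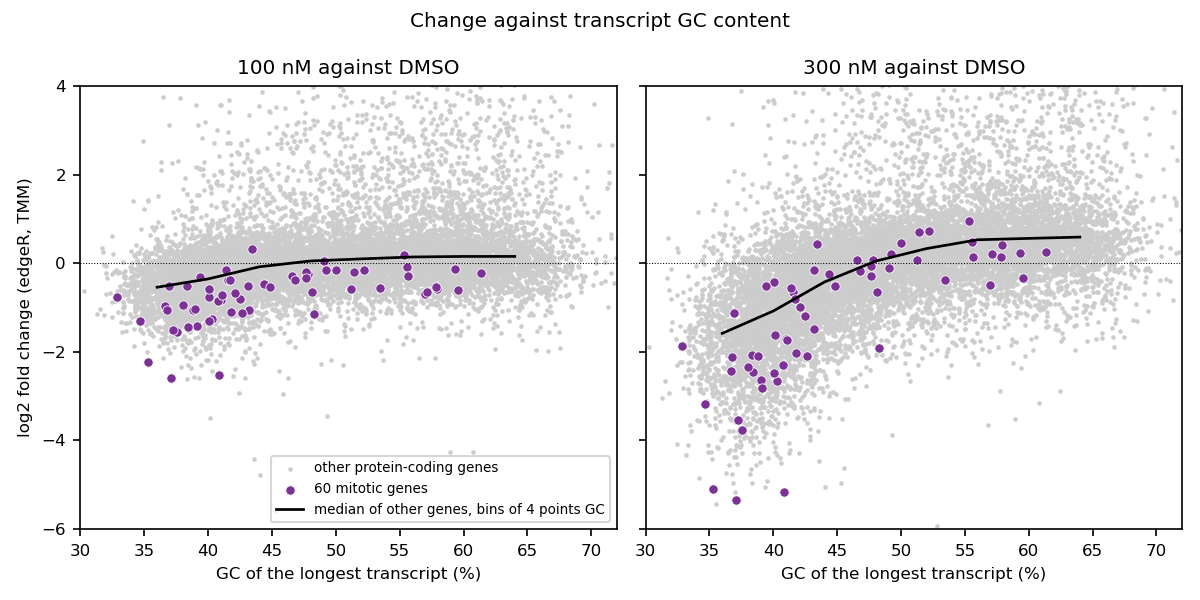
Log2 fold change against DMSO (y axis, edgeR with TMM scaling) by GC content of the longest transcript (x axis, %) for the 60 mitotic genes (purple) and 12372 other protein-coding genes (grey; 418 at 100 nM and 532 at 300 nM lie outside the axes), with the median of the other genes in GC bins of 4 points (line). At 100 nM most mitotic genes lie below the line at any GC content; at 300 nM the line itself falls at low GC content, and the genes above 0 sit mostly at higher GC content.

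The mitotic genes were therefore compared with genes of like exon length and GC content. Other expressed protein-coding genes were sorted into 25 classes, 5 of length by 5 of GC content, with at least 196 genes in each. At 100 nM 56 of the 60 mitotic genes lay below the median of their class, and at 300 nM 51 did. The median difference from the class was -0.58 and -0.61 on the log2 scale. In the members' classes an average of 28.7% of genes were lower at 100 nM and 48.2% at 300 nM. Between the doses the class averages were 43.8% lower and 19.4% higher, against 48.3% and 28.3% of the members. There 34 of the 60 lay below their class median, with a median difference of -0.06. The differences went both ways, from -1.78 (CENPE), -1.66 (ASPM) and -1.57 (CENPF) to 0.70 (CDCA8) and 0.74 (MAD2L1). ASPM, CENPE and CENPF, whose class median was -1.80 at 300 nM, lay far below it. CDK1 (-1.12 against -0.94) lay near its class, and BUB3 (-0.55 against -0.55) lay on it. BIRC5 (0.73 against 0.55) and CDCA5 (0.95 against 0.55) lay above theirs, while CDC20 (0.42 against 0.70) and AURKB (0.48 against 0.70) lay below, although both were higher than with DMSO.

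A second fit removed, in each library, a smooth trend of level on exon length and GC content by means of offsets. These offsets moved the median of all tested genes from 0.05 to -0.27 at 300 nM, and to -0.09 at 100 nM. With them 50 mitotic genes were lower and 2 higher at 100 nM, where 27.7% of all tested genes were lower and 25.7% higher. At 300 nM 49 were lower and 4 higher, where 41.6% were lower and 28.0% higher. Lower calls at both doses were made for 46, and the share of all tested genes with both calls was not counted. Relative to the shifted median of all genes, the members' median was -0.48 at 100 nM and -0.45 at 300 nM. The sign of the change turned for 4 genes at 100 nM and for 17 at 300 nM. A lower call gave way to no call for 5 genes at 100 nM (CENPK, CENPU, SKA3, CDK1 and SGO1) and for 4 at 300 nM (SPC25, SKA3, CDK1 and SGO1). The 4 with a higher call at 300 nM were BUB3 (0.53), MAD2L1 (0.63), SKA1 (0.60) and CDCA5 (0.17). CENPF (-3.77), ASPM (-3.52) and CENPE (-3.22) remained the 3 lowest. Between the doses 29 genes were lower and 14 higher, where 28.6% and 12.9% of all genes were, and the members' median relative to all genes was 0.01. Whether the trend with GC content and length came from the cells or from the libraries was not tested.

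**Figure D4:**
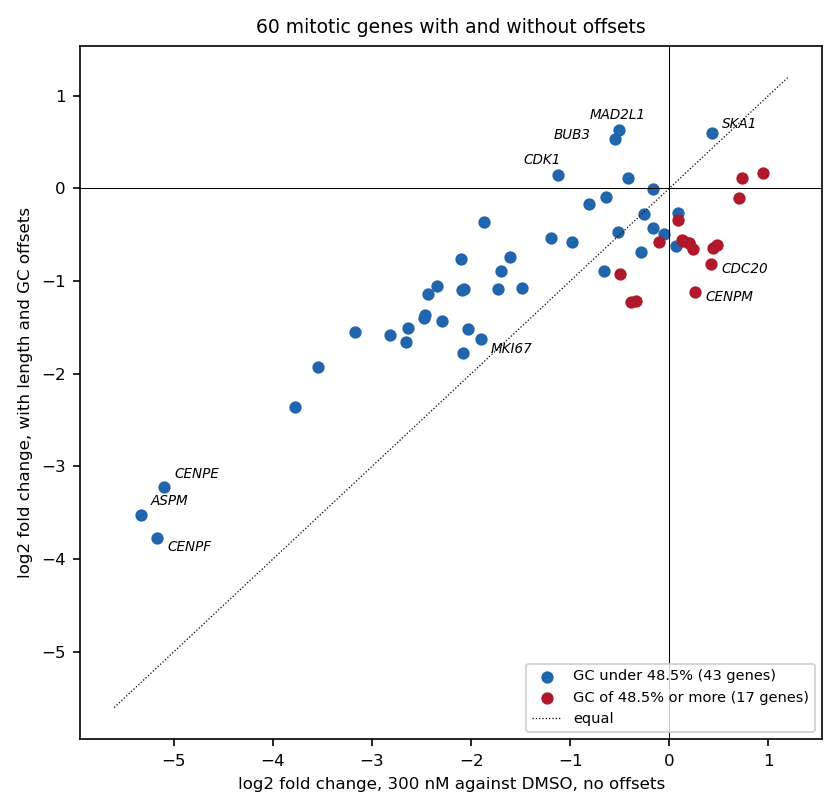
Log2 fold change at 300 nM against DMSO of each of the 60 mitotic genes without offsets (x axis) and with the length and GC offsets (y axis), coloured by GC content below (blue) or at or above (red) the median of protein-coding genes; the dotted line marks equal values. Of the 43 genes of low GC content 36 lie above the line and 7 below it, and all 17 of high GC content lie below it: CDC20 and CENPM move below 0 and CDK1, BUB3 and MAD2L1 above 0, while CENPF, ASPM and CENPE stay lowest.

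Other genes of mitosis and the cell cycle were read from 7 lists of 141 genes. Their counts at 300 nM stand against 31.1% of all tested genes lower and 34.8% higher, or 41.6% and 28.0% with the offsets. With the offsets the median of all tested genes was -0.27 at 300 nM. For the lowest genes named from each list, values with the offsets are not given. Medians of their length and GC classes at 300 nM ran from -1.80 (KNL1, CENPC and NIPBL) to -0.55 (POLA1). At 300 nM 18 of 29 other kinetochore genes were lower than with DMSO and 5 higher (62.1% and 17.2%, median -0.64), or 22 and 3 with the offsets. KNL1, the scaffold that recruits the checkpoint, was read at 44.9 and 49.1 CPM with DMSO, 10.6 and 14.5 CPM at 100 nM, and 3.12 and 2.69 CPM at 300 nM (log2 -4.02). CENPC, which links the centromere to the outer kinetochore, was at -3.52. CENPO and CENPX, further centromere subunits, were at 0.50 and 0.57, values that turned to -0.10 and -0.89 with the offsets. Of 15 other condensin and cohesin genes 12 were lower and 1 higher (80.0% and 6.67%; median -1.45, with the offsets -0.60), with the cohesin loader NIPBL at -3.61, the cohesin subunit STAG2 at -3.52, and the condensin II subunit NCAPH2 at 0.64, which turned to -0.43 with the offsets. Of 12 centrosome and cytokinesis genes 10 were lower and none higher (83.3% lower; median -2.15, with the offsets -1.17 and 1 gene higher), with the centriole proteins CEP152 and SASS6 at -4.50 and -4.09. Of 12 mitotic kinesins 9 were lower and none higher (median -0.98), and all 12 were lower with the offsets. KIF20B was read at 108 and 116 CPM with DMSO, 24.9 and 36.8 CPM at 100 nM, and 3.65 and 4.10 CPM at 300 nM (log2 -4.85), and KIF14 stood at -4.65. At 100 nM all 12 kinesins were lower, against 18.7% of all tested genes.

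The other 3 lists had calls in both directions. Of 17 genes of the complex and its partners 7 were lower and 3 higher at 300 nM (41.2% and 17.6%, median -0.23), a share lower that is near that of all tested genes, and with the offsets 9 were lower and 4 higher. The subunits ANAPC4 (-2.51) and CDC27 (-1.85) were the lowest, ANAPC15 was at 0.76, and the ubiquitin-conjugating enzyme UBE2S was read at 184 and 191 CPM with DMSO, 276 and 254 CPM at 100 nM, and 586 and 451 CPM at 300 nM (log2 1.47). Of 21 genes that control G2/M transcription and entry 11 were lower and 8 higher (52.4% and 38.1%, median -0.54). With the offsets their median was -0.21, or 0.06 relative to the shifted median of all tested genes. The pocket proteins RB1 and RBL1 were at -2.57 and -2.41, in classes with medians of -1.45 and -1.31. MYBL2, the B-MYB factor that activates mitotic promoters, was read at 221 and 222 CPM with DMSO, 270.0 and 252 CPM at 100 nM, and 548 and 432 CPM at 300 nM (log2 1.15), and its change with the offsets was 0.015. CDKN1A, the CDK inhibitor p21 and a p53 target, was read at 177 and 161 CPM with DMSO, 377 and 418 CPM at 100 nM, and 547 and 445 CPM at 300 nM, a log2 fold change of 1.24 at 100 nM and 1.56 at 300 nM. Of 35 S phase genes 10 were lower and 14 higher at 300 nM (28.6% and 40.0%, median 0.18), shares near those of all tested genes, with CCNE2 (-2.58) and POLA1 (-1.74) lowest and CCNE1 (1.05) and TK1 (1.07) highest, the last turning to -0.29 with the offsets. With the offsets 23 S phase genes were lower and 4 higher at 300 nM (65.7% and 11.4%), against 41.6% and 28.0% of all tested genes. Their median of -0.29 was -0.03 relative to the shifted median of all tested genes. At 100 nM 10 of the S phase genes were lower and 3 higher (28.6% and 8.57%; median -0.076), against 18.7% and 24.0% of all tested genes, and with the offsets 23 were lower and 2 higher (65.7% lower, against 83.3% of the mitotic genes and 27.7% of all tested genes).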

How the data were processed

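Polyadenylated RNA of 6 libraries was analysed. The deposited counts are reads per gene made by the authors with STAR, SAMtools and featureCounts, per the submitters' processing notes; per the file headers this was featureCounts 1.5.0-p3 on GENCODE v28 models, without paired-end or strand options. Mates were therefore counted singly and antisense reads were not told apart. Exon lengths (another value per gene) are also per the file headers. The notes name hg19 and GRCh37, but 56933 of 58381 identifiers recur with their version in GENCODE v29, all with the GRCh38 coordinates printed here. The deposited log2 matrix was scaled for library size and variance-stabilised by the authors, with settings not given in the sources used here, and served only as an alternative.

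The 60 members and all lists were chosen with earlier results of these data known. Counts were filtered with filterByExpr (23160 genes kept), scaled by TMM and fitted in 1 model of all 6 libraries by group, which leaves 3 residual degrees of freedom (R 4.3.3, edgeR 4.0.16, limma 3.58.1). The quasi-likelihood test was two-sided, with Benjamini-Hochberg adjustment and a threshold of 0.05. The standard error (SE) is the log2 fold change divided by the square root of the F statistic. Offsets were fitted per library with natural splines (5 degrees of freedom each) of log2 exon length and of the GC content of the longest transcript. The fit without offsets was tried on simulated counts in which few genes changed and no trend with length or GC content was present. The offsets were not tried in this way.

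By rule, values in every library were given for the lowest and highest member of each role at 300 nM, for CDK1, CCNB1, FOXM1, PLK1, AURKB, BUB1B, MKI67 and TOP2A, and for members that were higher in any comparison or changed sign between comparisons; of each other list, the 2 lowest and 2 highest called genes were named. Alternatives were DESeq2 size factors, no filter on low counts, the DESeq2 1.42.0 Wald test, leaving out each library, a replicate block, fitting only the groups compared, the deposited log2 matrix with limma, and the offsets with and without the block. Replicate numbers did not pair the libraries: same-numbered libraries of different groups had correlated deviations of 0.02, 0.0075 and 0.0748.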

Additional observations from a re-analysis of the deposited data

How the results depend on the processing

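Counts of lower members kept within 1.5 times of the main count under every alternative run. With 1 library left out, 38 to 48 members were lower at 100 nM, 35 to 39 at 300 nM and 26 to 32 between the doses. Higher members varied more. At 100 nM their number was 0, but 1 without the filter on low counts or with the replicate block, and 2 with the length and GC offsets (alone or with the block) or with only the 2 groups compared; it was 0 to 1 with a library left out. At 300 nM it was 7, but 11 with the replicate block, 4 with the offsets and 4 with offsets and block, and 6 to 12 with a library left out. Between the doses it was 17, and 10 to 19 with a library left out. Of all genes, 2883 to 5036 were lower at 100 nM and 2896 to 4901 higher between the doses with a library left out, and 2990 were higher between the doses with the offsets, 3059 with offsets and block. The lowest of these counts came without 100 nM replicate 1 for the genes lower at 100 nM and without 100 nM replicate 2 for those higher between the doses. The members' median log2 fold change between the doses (-0.29) was -0.21 with DESeq2 size factors and with the DESeq2 Wald test, -0.17 with the offsets, -0.17 with offsets and block, and -0.45 to -0.15 with a library left out; at 300 nM it was -0.76 to -0.58 with a library left out.

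The replicate block alone turned no member's sign, and 11 of the 180 member values gained a call and none lost it. Other scalings and tools moved few values: 170 of 180 kept sign and call with DESeq2 size factors, 169 with the Wald test and 171 with the deposited matrix, where PRC1 between the doses turned to 0.062, 0.062 and 0.055.

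The offsets turned 35 of the 180 member values. They also moved the median of all tested genes, to -0.09 at 100 nM, -0.27 at 300 nM and -0.18 between the doses. At 100 nM CENPN turned to -0.15 (-0.14 with the block), BUB3 to 0.31, MAD2L1 to 0.16 and CDCA5 to -0.11. At 300 nM CENPA turned to -0.62, CENPM to -1.12, SPC25 to 0.11, BUB3 to 0.53, MAD2L1 to 0.63, AURKB to -0.61, CDCA8 to -0.10, CDK1 to 0.15 (0.14 with the block), CDC25B to -0.65, CDCA3 to -0.34 (-0.35 with the block), FOXM1 to -0.57, CDC20 to -0.82, UBE2C to -0.64, PTTG1 to -0.59, AURKA to -0.26, PLK1 to -0.59 and TACC3 to -0.56; of the genes of other lists CENPO turned to -0.10, CENPX to -0.89, NCAPH2 to -0.43 and TK1 to -0.29. Between the doses CENPM turned to -0.24, SPC24 to -0.31, SKA3 to 0.090 (0.091 with the block), BUB3 to 0.22 (0.21 with the block), MAD2L1 to 0.48, AURKB to -0.030, INCENP to -0.27, CDK1 to 0.18, CDC25B to -0.18, CDC25C to -0.077, FOXM1 to -0.021 (-0.020 with the block), PTTG1 to -0.035, ESPL1 to -0.12 and NCAPH to -0.17. The other values with the block were the same to 2 decimals, and the cause was not tested.

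Signs that turned with a library left out belonged to members with no call in that comparison, with ranges of AURKB -0.14 to 0.0072 at 100 nM, CENPN -0.23 to 0.0060, CDCA3 -0.026 to 0.19 and TACC3 -0.0012 to 0.26 at 300 nM, and SKA1 -0.036 to 0.22, MAD2L1 -0.46 to 0.011, NCAPH -0.0099 to 0.070, CDCA2 -0.022 to 0.038 and PRC1 -0.10 to 0.058 between the doses. Where a group kept 1 library, that library was taken to vary like the other groups. Depth (at least 89159112 reads) left no member under the filter on low counts, and PRC1, the lowest, had 1.44 to 2.55 CPM.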
